A study of Homo sapiens with 6 samples.

Results

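The regions described here carried an H3K79me2 peak in KDM2B-knockdown and in control 293T cells, and an H3K79me3 peak in knockdown cells only. They were found by merging the 4 peak lists wherever peaks shared at least 1 bp, on chromosomes 1 to 22, X and Y, and keeping each merged region with a peak in all lists but that of control H3K79me3. This gave 958 of 8899 merged regions (10.8%), or 17.6% of the 5428 regions with H3K79me2 in both lines. The regions were chosen by the presence and absence of called peaks in these same libraries, so the missing control H3K79me3 peak and the knockdown H3K79me3 peak are part of the choice and not findings.

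The knockdown line was 293T, cells of human embryonic kidney origin that express SV40 large T antigen, with a stably expressed short hairpin RNA against KDM2B (shKDM2B). The control line was 293T with a stably expressed control hairpin (shCTL). Each line gave 1 H3K79me2, 1 H3K79me3 and 1 input library, the last made without antibody. The labels name 1 hairpin per line and do not say whether a line is 1 clone; the level of KDM2B was not analysed here. With 1 library per group no test between the lines can be made, and every difference below is a difference between libraries.

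H3K79 lies on the globular face of the nucleosome. Its methyl groups are added stepwise by DOT1L, the only known dedicated H3K79 methyltransferase in mammals, so that a nucleosome passes through dimethylation on the way to trimethylation. Both forms mark the early part of genes that are being transcribed. KDM2B belongs to the JmjC family of histone demethylases and binds unmethylated CpG islands through its CxxC domain. The study's title names it a demethylase of H3K79.

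Depth and fragment length of the libraries touch the values. Filtered depth was 16389356 tags for knockdown H3K79me3, 17044011 for control H3K79me3, 13144744 for knockdown H3K79me2 and 16018517 for control H3K79me2. The peak caller estimated fragments of 126 bp in knockdown and 180 bp in control H3K79me3, and of 210 bp in knockdown and 148 bp in control H3K79me2. Its tag size was 50 bp in knockdown H3K79me3 and H3K79me2, 46 bp in control H3K79me3 and 47 bp in control H3K79me2. The tag size was 50 bp in both input libraries, so this difference follows the line among the ChIP libraries only. Its part in the values was not tested. Levels are given as tags per 1000000 filtered tags (RPM) and as RPM per kb of called peak (density), and a peak that is missing from a list is not a level of 0.

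The 958 regions were shorter than regions with both marks in both lines, and less dense in every library that marked them. Their median length was 2285 bp, against 4011.5 bp in regions with both marks in both lines. It was 1531.5 bp in regions with H3K79me2 in both lines and no H3K79me3 peak. The 958 had length quartiles at 1688 and 3308 bp and a range of 654 to 8477 bp, and together they covered 2.59 Mb. The knockdown H3K79me3 peaks in them held a median of 45 tags, from 10 to 1044, in a median of 1056 bp. Knockdown H3K79me3 density had a median of 2.54 RPM per kb and ranged from 1.62 to 17.8, with quartiles at 2.20 and 2.97. In the 3922 regions with both marks in both lines the median knockdown H3K79me3 density was 5.26 RPM per kb, with quartiles at 3.76 and 7.85. The 958 regions thus sat in the low range of knockdown H3K79me3. They held 2.66% of the tags in knockdown H3K79me3 peaks, against 60.1% in the regions with both marks in both lines.

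H3K79me2 stood at nearly the same density per kb of called peak in both lines. The called peaks differed in width between the lines, so these are not densities over the same bases. In the 958 regions knockdown H3K79me2 density had a median of 2.79 RPM per kb, from 1.37 to 10.7, and control H3K79me2 density a median of 2.71, from 1.63 to 13.6. In the regions with both marks in both lines the medians were 4.69 RPM per kb in knockdown and 5.30 in control cells. In the 498 regions with H3K79me2 in both lines and no H3K79me3 peak they were 2.20 in knockdown and 2.25 in control cells. By H3K79me2 the 958 regions therefore lay between these classes in either library, nearer to the regions without H3K79me3.

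**Figure D1:**
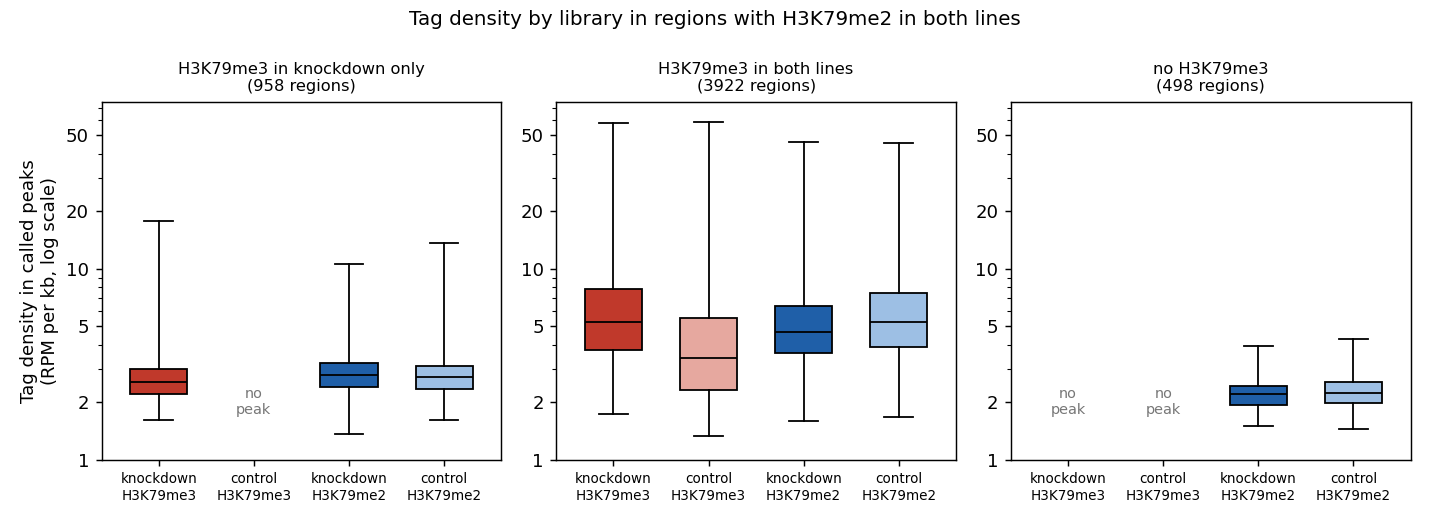
Tag density in called peaks (RPM per kb, log scale) in the 4 ChIP libraries, for the 958 regions, for regions with both marks in both lines and for regions without H3K79me3. Boxes give quartiles and median over regions, whiskers the lowest and highest region; medians of knockdown H3K79me3 are 2.54 in the 958 regions and 5.26 in regions with both marks in both lines.

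How often H3K79me3 was called in knockdown cells only depended steeply on H3K79me2 density, which was measured in other libraries than H3K79me3. The 5428 regions with H3K79me2 in both lines were ordered by control H3K79me2 density and divided into 10 equal groups. The 958 regions made up 40.5% of the lowest group (95% interval 36.4 to 44.8%), 53.6% of the next (49.3 to 57.8%) and 46.0% of the third (41.8 to 50.3%). They then made up 22.9%, 9.76% and 2.58% of the next 3 groups, and at most 0.369% of each higher one. Over the same 10 groups regions with H3K79me3 in both lines went from 5.71% in the lowest to 99.8% in the highest, and regions without H3K79me3 from 51.6% in the lowest to 0 of 543. Knockdown-only H3K79me3 was thus most frequent in the second group, where H3K79me2 was between 2.33 and 2.75 RPM per kb. Ordered by knockdown H3K79me2 density the 958 regions peaked at 46.96% in the third group and fell to 0.184% in the highest. The intervals are exact binomial ones, which cover counting error only, and regions of 1 library are not replicates.

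**Figure D2:**
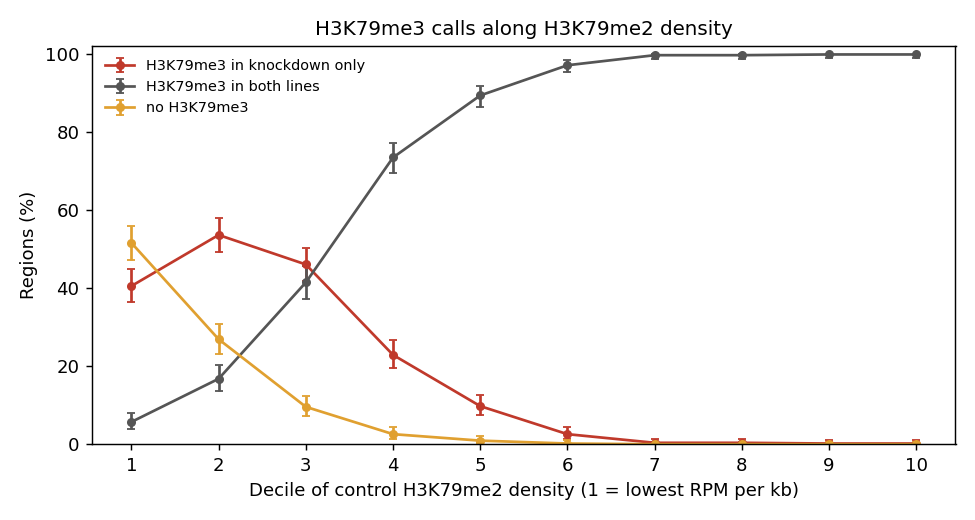
Percent of regions with H3K79me2 in both lines (y axis) that have H3K79me3 in knockdown only, in both lines or in neither, by decile of control H3K79me2 density (x axis), with exact 95% binomial intervals. The knockdown-only share peaks at 53.6% in the second decile; the 50 regions with H3K79me3 in control only are not drawn.

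The name "stable H3K79me2" held for density but not for the amount of H3K79me2 called. The median log2 ratio of H3K79me2 density, knockdown over control, was 0.02 in the 958 regions, with quartiles at -0.15 and 0.21. Over all 5428 regions with H3K79me2 in both lines the median was -0.153, so the 958 lay near 0 but above the general level. In 30 of the 958 regions (3.13%) the knockdown library had at least 1.5-fold the control density, against 0.829% of all regions with H3K79me2 in both lines. It was at least 1.5-fold lower in 12 (1.25%), against 4.42% of all. The difference in density exceeded counting error upward in 56 regions (5.85%), against 3.15% of all, and downward in 32 (3.34%), against 30.6% of all. In the regions without H3K79me3, 0.803% exceeded it upward and 1.61% downward, and 1.41% were at least 1.5-fold lower. Counting error is wider where tags are few. The median control H3K79me2 tag count was 66 in the 958 regions, 37 in those without H3K79me3 and 191 in all. The sign of the median log2 density ratio changed with the peak threshold. It was -0.059 in the 487 regions that the rule gave in the higher-scoring 50% of each list, which hit only 36 of the 958 and are thus mostly other regions. It was -0.00022 in the 393 regions found among peaks at or above the median fold enrichment, which hit 337 of the 958.

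Summed H3K79me2 tags were higher in knockdown cells. The log2 ratio of tags had a median of 0.52 (quartiles 0.10 and 0.98), and 777 of the 958 regions (81.1%) lay above 0. Tags were at least 1.5-fold higher in 450 of the 958 regions (47.0%), against 17.2% of all regions with H3K79me2 in both lines, and at least 1.5-fold lower in 20 (2.09%), against 3.52% of all. The ratio exceeded counting error upward in 498 regions (51.98%), against 24.7% of all, and downward in 36 (3.76%), against 24% of all. In the regions without H3K79me3 it did so upward in 36.7% and downward in 4.22%. The difference in tags between the lines lay in the called width. The H3K79me2 peaks covered a median of 2186.5 bp in knockdown and 1481 bp in control cells. They were wider in knockdown cells in 813 regions (84.9%), against 72.7% of all and 81.9% of the regions without H3K79me3. The median log2 ratio of widths was 0.49, against 0.16 in all. The higher-scoring 50% of each list, which mostly selected other regions, gave a median log2 ratio of tags of 0.18. The estimated fragment was also longer in knockdown H3K79me2, and its part in the result was not tested.

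The widening was shared by other regions of low H3K79me2, but was smaller where H3K79me3 was called in both lines. In the 498 regions without H3K79me3 the median log2 ratio was 0.40 for tags, 0.48 for width and -0.05 for density. In the 3922 regions with both marks in both lines it was -0.09 for tags, 0.10 for width and -0.20 for density. Among regions in the 3 lowest deciles of control H3K79me2 density, which held 761 (79.4%) of the 958 regions, the median log2 ratio of tags was 0.60 in these 761, 0.25 in 347 regions with H3K79me3 in both lines and 0.41 in 478 regions without H3K79me3. The width ratios of the same sets were 0.51, 0.23 and 0.49, and the density ratios were 0.08, 0.01 and -0.04. In the 7 higher deciles 197 of the 958 regions had a median of 0.29 for tags and -0.15 for density. These deciles were ordered by the control density, which is also the denominator of the density ratio, and the part of that in the ratios was not tested.

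**Figure D3:**
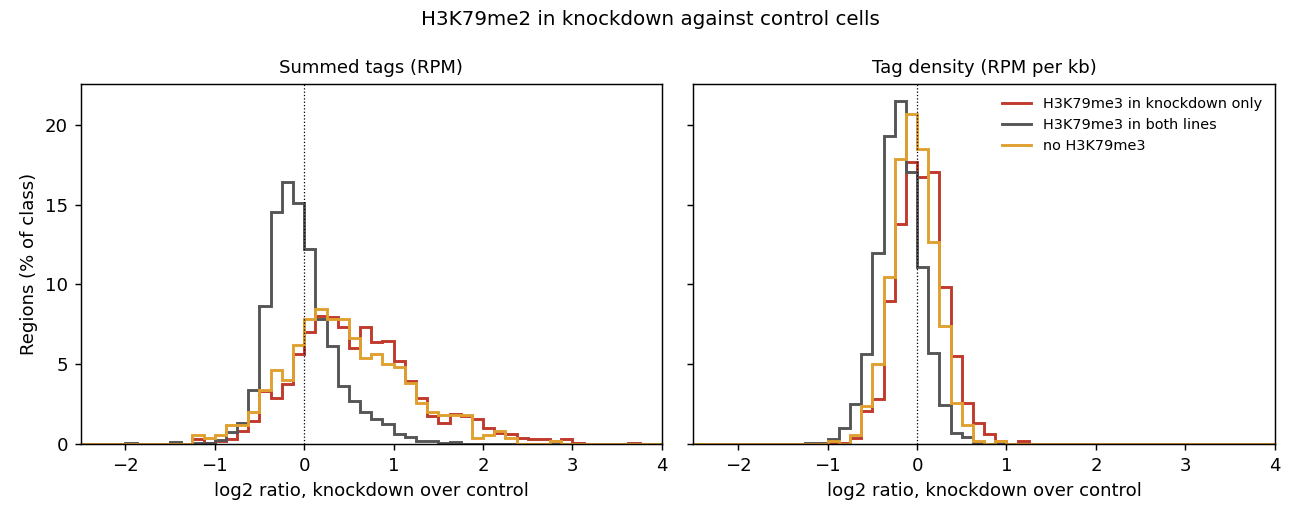
Distribution of the log2 ratio of H3K79me2, knockdown over control, as percent of each class in bins of equal width, for summed tags (left) and density (right). For tags the 958 regions (median 0.52) and the regions without H3K79me3 (0.40) lie to the right of the regions with H3K79me3 in both lines (-0.09); for density the medians are 0.02, -0.05 and -0.20.

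Within the 958 regions the level of knockdown H3K79me3 followed that of H3K79me2. Across them knockdown H3K79me3 density correlated with knockdown H3K79me2 density with Pearson's r of 0.776 and Spearman's rho of 0.658, and with control H3K79me2 density at 0.718 and 0.530. The knockdown libraries come from the same cells, all densities share the mappability and copy number of their region, and regions are not replicates, so these are descriptions. The 14 regions on input peaks, which include the densest, were kept in these correlations, and values without them were not computed. Knockdown H3K79me3 was denser than knockdown H3K79me2 in 300 of the 958 regions (31.3%), and the median ratio of the densities was 0.929. In the regions with both marks in both lines H3K79me3 was denser in 74.9% in knockdown cells, with a median ratio of 1.14, and in 4.77% in control cells. The marks were read with different antibodies, so a ratio near 1 does not mean equal amounts. Each density was also taken over the called peak of its own mark. The part of peak width in the ratio, and in its difference between the classes, was not tested.

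**Figure D4:**
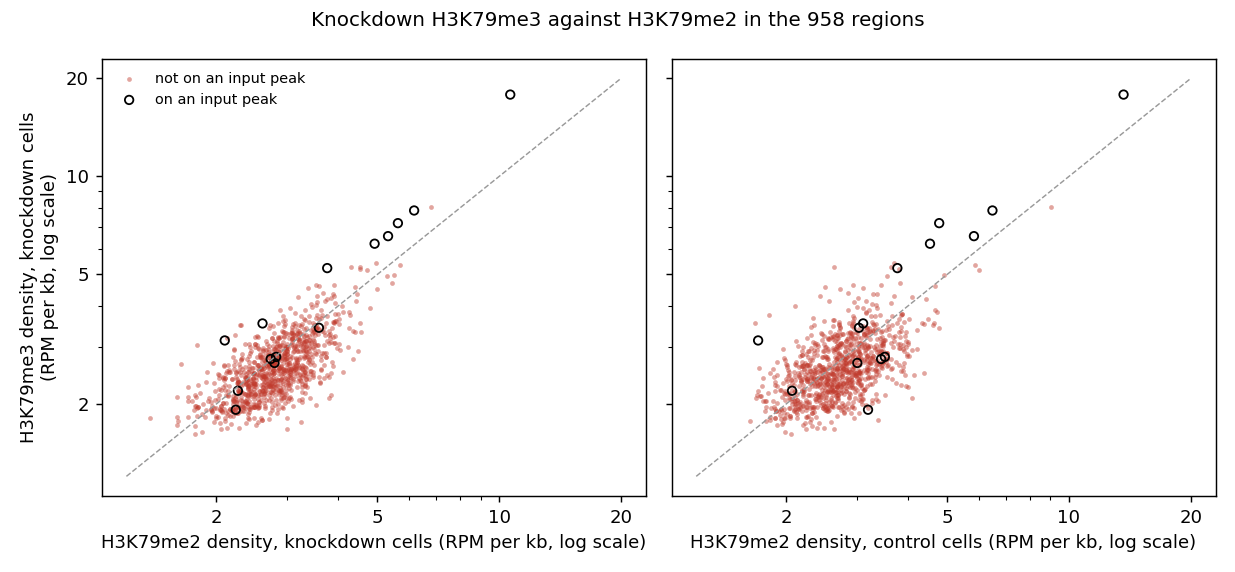
Knockdown H3K79me3 density (y axis, RPM per kb, log scale) against H3K79me2 density (x axis, same unit and scale) in knockdown (left) and control (right) cells, 1 point for each of the 958 regions; the dashed line marks equal density. Spearman's rho is 0.658 (left) and 0.530 (right), and the densest region, at 17.8 RPM per kb, is one of 14 on an input peak (open circles).

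The knockdown H3K79me3 peak sat inside the H3K79me2 peak and was narrower. In the 877 regions with 1 peak of each of the 3 lists, it lay wholly within the knockdown H3K79me2 peak in 767 (87.5%) and wholly within the control H3K79me2 peak in 482 (54.96%). Its summit, the point with the most overlapping fragments, was a median of 209 bp from the knockdown H3K79me2 summit and 194 bp from the control H3K79me2 summit. The H3K79me2 summits of the lines were themselves a median of 204 bp apart, a distance between these values. The H3K79me3 peak covered a median of 48.2% of the knockdown H3K79me2 peak. In 3786 regions with H3K79me3 in both lines and single peaks in these 3 lists the same cover was 73.9%, with a summit distance of 168 bp. There the knockdown H3K79me3 peak lay wholly within the knockdown H3K79me2 peak in 83.65% and within the control one in 62.5%. Peaks of a region were joined by shared bp, so some overlap is part of the rule. In 10 of the 877 regions the H3K79me3 peak shared no bp with the control H3K79me2 peak and was joined to it through the knockdown H3K79me2 peak.

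Of the remaining 81 regions, 54 had more than 1 knockdown H3K79me3 peak, with at most 3, and 32 had more than 1 control H3K79me2 peak. None had more than 1 knockdown H3K79me2 peak. Together the 958 regions held 1013 knockdown H3K79me3 peaks.

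The scores of the knockdown H3K79me3 peaks, 10 times the negative log10 of the caller's p with a floor of 50, were moderate. Taking the best peak of each region, 422 of the 958 regions scored below 100, 427 between 100 and 200 and 109 (11.4%) at 200 or above, against 80.3% at 200 or above in the regions with both marks in both lines. Density stood at a median of 2.20 RPM per kb in the 422 and 3.49 in the 109. H3K79me2 was also denser in the 109 strongest, at 3.52 RPM per kb in knockdown and 3.14 in control cells, with a median log2 ratio of 0.13 for density and 0.66 for tags. In the 422 weakest it was 2.54 in knockdown and 2.52 in control cells, with ratios of -0.003 and 0.49. Among these score groups, median H3K79me2 density was thus highest in both lines in the group with the strongest knockdown-only calls. By width, 446 regions had less than 1 kb of knockdown H3K79me3 peak, 359 had 1 to 2 kb, 132 had 2 to 4 kb and 21 had 4 kb or more.

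Peaks of control H3K79me3 were called at densities as low as those of the knockdown peaks described here. The 5597 control H3K79me3 peaks had a 5th percentile of 1.70 RPM per kb, a lower quartile of 2.32 and a median of 3.38. Knockdown H3K79me3 density was above that 5th percentile in 952 of the 958 regions, above that quartile in 640 (66.8%) and above that median in 106 (11.1%). All 7066 knockdown H3K79me3 peaks had a 5th percentile of 2.08 RPM per kb, a lower quartile of 2.95 and a median of 4.35. Each of these exceeded its control value, so most knockdown peaks of any kind pass the control values. The counts therefore do not tell whether a control peak could have been called in the 958 regions. Of the regions with both marks in both lines, 378 had a knockdown H3K79me3 density within the quartiles of the 958. In these 378 the median was 2.64 RPM per kb in knockdown and 1.88 in control cells, with control quartiles at 1.69 and 2.12, a median log2 ratio of 0.48. Their H3K79me2 density was 2.90 in knockdown and 3.21 in control cells. What control H3K79me3 density the 958 regions had is not given by a peak list.

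Few of the regions lay beside a control H3K79me3 peak. The nearest one on the same chromosome was a median of 76566.5 bp away, with quartiles at 27922 and 221527 bp. It lay within 1 kb of 16 regions (1.67%), within 10 kb of 89 (9.29%, 95% interval 7.53 to 11.3%) and within 100 kb of 549 (57.3%). In the regions without H3K79me3 the shares were 0.402%, 8.03% and 55.2%. At the edge of the rule, the 3 regions nearest to a control H3K79me3 peak were 68, 111 and 160 bp from it. The 3 just outside it, with the fewest bp shared between a control H3K79me3 peak and a region of the other 3 lists, shared 4, 202 and 286 bp. Of 4883 regions built from the other 3 lists, 3925 met a control H3K79me3 peak, 12 of them by at most 500 bp.

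The nearest merged region of any kind was a median of 50138 bp from one of the 958 and lay within 10 kb of 161 (16.8%). It was a region with both marks in both lines for 450 (47.0%) and another of the 958 for 112 (11.7%). For regions with both marks in both lines the nearest one was of their own kind in 48.3% and one of the 958 in 10.7%. The regions were spread over all chromosomes. Their share of regions with H3K79me2 in both lines was lowest on chromosome 14, at 21 of 162 (12.96%, 95% interval 8.21 to 19.1%), and highest on chromosome 10, at 49 of 212 (23.1%, 95% interval 17.6 to 29.4%). These intervals overlap, and both hold the share over all chromosomes. Chromosome 1 had the most, with 93 of 541, and Y the fewest, with 3 of 14.

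Input peaks touched 14 of the 958 regions (1.46%, 95% interval 0.801 to 2.44%), against 2.98% of all regions with H3K79me2 in both lines. The share was 3.44% in the regions with both marks in both lines and 1.41% in those without H3K79me3, close to that of the 958. The 14 regions included the densest of the 958. At chromosome 16, 46430797 to 46435873 (hg19, as all positions here), knockdown H3K79me3 reached 17.8 RPM per kb, from 1044 tags in 3571 bp, beside H3K79me2 at 10.7 RPM per kb in knockdown and 13.6 in control cells. At chromosome 4, 49108695 to 49113255, knockdown H3K79me3 stood at 7.86 RPM per kb, and at chromosome 10, 42542419 to 42546538, at 7.19. Reads pile up at these places without an antibody, and the part of that in their density was not tested.

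Outside input peaks, 422 regions had at least 50 knockdown H3K79me3 tags, and the 10 densest of them had 4.69 to 8.08 RPM per kb. The files name no genes, and the gene table at hand is of another build, so regions are given by position. The densest lay at chromosome 12, 68042474 to 68050707. It held 892 knockdown H3K79me3 tags (54.4 RPM, 95% Poisson interval 50.9 to 58.1) in 6739 bp. Its H3K79me2 density was 6.79 RPM per kb in knockdown and 9.02 in control cells, a log2 ratio of -0.41 (counting SE 0.07). Its nearest control H3K79me3 peak was 1029788 bp away, although its H3K79me2 was among the densest of the 958. It was also the second longest of the 958 regions, and its H3K79me2 peaks scored only 70.9 in knockdown and 89.1 in control cells.

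The next densest, at chromosome 19, 40949273 to 40950622, was the region nearest to a control H3K79me3 peak, at 68 bp. It had 5.41 RPM per kb of H3K79me3 in knockdown cells, and H3K79me2 at 4.97 in knockdown and 3.70 in control cells. The peak beside it carried both marks in both lines, with H3K79me3 at 6.71 RPM per kb in knockdown and 3.92 in control cells. The region thus lay at the edge of a place with H3K79me3 in both lines. At chromosome 3, 138545385 to 138553861, the longest of the 958 regions, knockdown H3K79me3 was at 5.35 RPM per kb over 8110 bp with a score of 63.3. H3K79me2 there was at 5.68 RPM per kb in knockdown and 5.87 in control cells with scores of 54.8 and 57.7, so all 3 peaks were dense but close to the score floor.

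A short and strong region lay at chromosome 19, 2475919 to 2477886. Knockdown H3K79me3 had 151 tags in 1743 bp there, 5.29 RPM per kb with a score of 467. Knockdown H3K79me2 had 117 tags in 1968 bp and control H3K79me2 31 tags in 736 bp, which gave 4.52 and 2.63 RPM per kb and a log2 density ratio of 0.78 (counting SE 0.29). H3K79me2 was thus higher in the knockdown library at this place, while control H3K79me3 has no listed value there. The region at chromosome 5, 172195714 to 172198308, had H3K79me3 at 5.21 RPM per kb in knockdown cells, from 162 tags, with 155 H3K79me2 tags in knockdown and 118 in control cells. At chromosome 16, 475706 to 483206, H3K79me3 was at 5.26 RPM per kb in knockdown cells, while the H3K79me2 peak covered 7501 bp in knockdown and 3104 bp in control cells. Of the other 4, the region at chromosome 4, 151930189 to 151936687, had H3K79me3 at 5.15 RPM per kb in knockdown cells, and that at chromosome 8, 145063835 to 145065809, had 4.98. Those at chromosome 15, 80987399 to 80992579, and at chromosome 6, 150180556 to 150185530, had 4.95 and 4.69. On chromosomes 15 and 6 H3K79me2 density was higher in knockdown cells, with log2 ratios of 0.57 (counting SE 0.14) and 0.51 (counting SE 0.12). On chromosome 4 it was lower, at -0.34 (counting SE 0.09), and on chromosome 8 the ratio was 0.16 (counting SE 0.18). Of the 5 longest regions, 3 were among these 10; the others, at chromosome X, 114795417 to 114802784, and chromosome 21, 38071480 to 38078846, had H3K79me3 at 3.53 and 4.03 RPM per kb in knockdown cells.

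**Figure D5:**
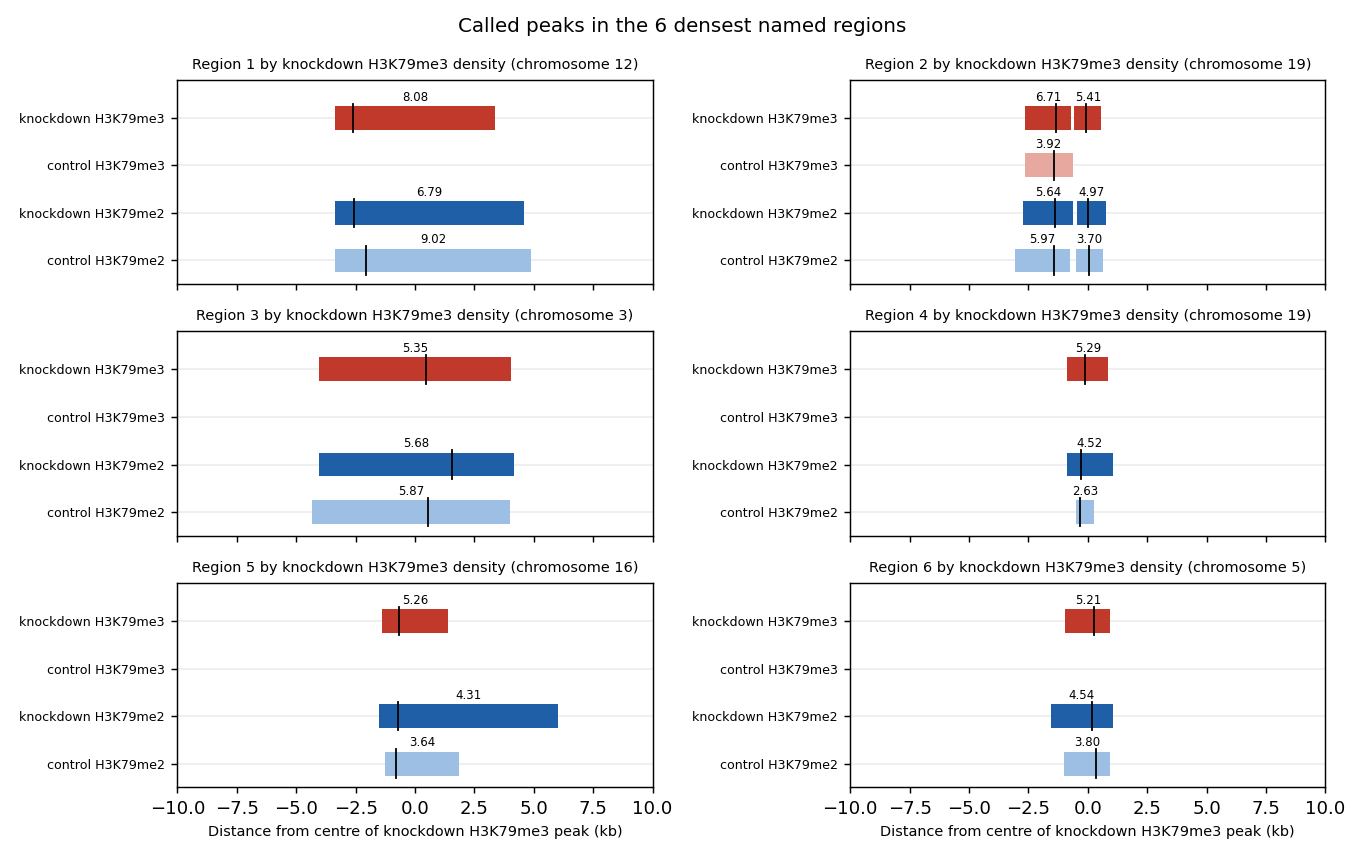
Called peaks of the 4 ChIP lists (bars, summit as a black tick, number above the bar: RPM per kb) within 10 kb of the centre of the knockdown H3K79me3 peak, for the 6 densest of the 958 regions outside input peaks. A control H3K79me3 peak is listed in this window for the region on chromosome 19 that is second in rank only, where it belongs to the neighbouring region, at 3.92 RPM per kb.

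Among the 543 regions with single H3K79me2 peaks of at least 50 tags in each line and no input peak, some differed in H3K79me2 density by more than counting error. The highest ratio was at chromosome 19, 12902300 to 12904432, where H3K79me2 had 140 tags in 2133 bp in knockdown and 60 tags in 1377 bp in control cells, a log2 density ratio of 0.88 (counting SE 0.22). Knockdown H3K79me3 there was at 4.51 RPM per kb with a score of 374. At chromosome 16, 3019219 to 3022337, the ratio was 0.82 (counting SE 0.20), with knockdown H3K79me3 at 4.57 RPM per kb and a score of 340. Both positions also ranked high in knockdown H3K79me3, well above the median of 2.54. The next 3 lay at chromosome 8, 54793340 to 54795786, chromosome 17, 45054778 to 45056685, and chromosome 1, 231001320 to 231004239, with ratios of 0.77, 0.69 and 0.66. Their knockdown H3K79me3 densities were 2.42, 4.30 and 2.36 RPM per kb. Over all 958 regions knockdown H3K79me3 density followed the log2 ratio of H3K79me2 density only weakly (Pearson's r 0.085, Spearman's rho 0.127). For the log2 ratio of tags the values were 0.068 and 0.119.

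The lowest ratio was at chromosome 2, 220109959 to 220111744, where H3K79me2 had 54 tags in 1786 bp in knockdown and 78 tags in 1236 bp in control cells, a log2 density ratio of -0.78 (counting SE 0.26). Knockdown H3K79me3 there had 23 tags in 572 bp, 2.45 RPM per kb. At chromosome 9, 140616162 to 140619611, the ratio was -0.70 (counting SE 0.18), with knockdown H3K79me3 at 2.45 RPM per kb, but summed tags were nearly equal at 8.82 RPM in knockdown and 8.62 in control cells. The next 3 lay at chromosome 17, 73452617 to 73456932, chromosome 12, 123459736 to 123461342, and chromosome 7, 75508105 to 75510244, with ratios of -0.65, -0.62 and -0.62. Their knockdown H3K79me3 densities ran from 2.72 to 3.07 RPM per kb. Of these 5 regions, the 2 with the lowest ratios thus lay below the median knockdown H3K79me3 density of 2.54 and the other 3 above it. These were the extremes of 543 ratios and were named for that.

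Some of the 958 regions lay megabases from any control H3K79me3 peak. At chromosome X, 140270047 to 140271379, the nearest control H3K79me3 peak was 4307080 bp away. Knockdown H3K79me3 had 29 tags, knockdown H3K79me2 38 and control H3K79me2 38. At chromosome 4, 95128723 to 95131899, and chromosome X, 95939695 to 95943878, the distances were 4050481 and 3946612 bp. The X region had 189 knockdown H3K79me3 tags over 4133 bp, and H3K79me2 at 3.23 RPM per kb in knockdown and 2.45 in control cells. At chromosome 13, 72437727 to 72441022, and chromosome 3, 66548093 to 66551557, the distances were 3611835 and 2538603 bp. The chromosome 13 region went the other way in H3K79me2, with 83 tags in 2270 bp in knockdown and 222 tags in 3296 bp in control cells, a log2 density ratio of -0.60 (counting SE 0.19), while knockdown H3K79me3 was at 2.95.

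The mirror image, with H3K79me2 in both lines but an H3K79me3 peak only in control, was rare, at 50 regions. The knockdown H3K79me3 peaks of the 958 had a median of 2.54 RPM per kb and a median score of 107, and the control H3K79me3 peaks of the 50 had 1.72 RPM per kb and a score of 69.7. The libraries differed in the same direction elsewhere. All knockdown H3K79me3 peaks had a median of 4.35 RPM per kb and all control ones 3.38, and the median log2 ratio in the regions with both marks in both lines was 0.55. H3K79me2 in the 50 stood at 2.41 RPM per kb in knockdown and 2.72 in control cells, with a median log2 density ratio of -0.16. Their summed H3K79me2 tags gave a median ratio of 0.03, and 6 of the 50 (12%, 95% interval 4.53 to 24.3%) lay on input peaks. With all lists cut to equal numbers of peaks, by score, there were 510 knockdown-only and 113 mirror regions.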

How the data were processed

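The 6 libraries were used, 1 per group. Per the submitters' processing notes the aligner was Bowtie2 (version not given in the sources used here) and the build hg19 (GRCh37). The authors called peaks in each library separately with MACS 1.4.2, per the file headers, without a control file, at a p cutoff of 1e-05, keeping 1 tag per position and reading the local background over 10000 bp. The deposited tag counts are raw, the deposited fold enrichment is a ratio to the library's own background, and the deposited score is 10 times the negative log10 of p; positions are 1-based. Peaks of chromosomes 1 to 22, X and Y that share a bp were joined, tags summed per library and divided by the filtered tags of the header, with pandas 2.3.3, scipy 1.17.1 and numpy 2.4.6 under Python 3.11.15. The merging and the ratios were tested on simulated data. Shares carry exact Clopper-Pearson and RPM exact Poisson 95% intervals, for counting error only. A ratio exceeded counting error where its log2 value lay outside a 95% normal interval around 0 with the standard error of 2 Poisson counts. A ratio of at least 1.5-fold was counted as different, with no test. The regions and lists were chosen with earlier results of these data known. Named regions were the 10 densest in knockdown H3K79me3 (at least 50 tags, no input peak), the 5 highest and 5 lowest H3K79me2 density ratios, the 5 farthest from control H3K79me3, the 5 longest and the 3 on each side of the rule; regions on input peaks and groups by score and width were added after the values were seen. No gene and no sequence is given, since a genome and an annotation of the build hg19 were not used here.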

Additional observations from a re-analysis of the deposited data

How the results depend on the processing

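Each of 7 values was recomputed under 6 other settings; 25 of the 42 values stayed within 1.5 times (counts) or within the 95% interval (shares and medians). Removing peaks on input peaks, joining peaks within 1 kb and asking for an overlap of 50% of the shorter peak gave 944, 944 and 958 regions; by construction the first left 0% on input peaks. With 5597 peaks taken from every list there were 510 regions, which hit 510 of the 958, and 113 mirror regions, with a median knockdown H3K79me3 density of 2.80 RPM per kb. With the higher-scoring 50% of each list there were 487 regions and 20 mirror regions, which hit 36 of the 958, so the rule then picked mostly other places. Their medians were 3.95 RPM per kb for knockdown H3K79me3, -0.059 for the log2 H3K79me2 density ratio and 0.18 for that of tags; 5.54% lay within 10 kb of a control H3K79me3 peak and 0.616% on an input peak. Peaks at or above the median fold of 5.67 gave 393 regions, which hit 337 of the 958, and 27 mirror regions, with medians of 2.48 RPM per kb, -0.00022 and 0.35 and with 6.62% within 10 kb. Membership thus depended on the calling threshold, and what a peak below it would show cannot be read from a list. No paired analysis was possible because each group has 1 library.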
